A study of Mus musculus with 56 samples.

Results

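The 14 Tgfb1-high tumors were compared with the 14 Tgfb1-low tumors of a set of 56 p53-null mouse mammary tumors, across all genes measured. The tumors were chosen by a measured value: the level of the brighter of the 2 Tgfb1 probe sets was ranked within the 32 tumors of wild-type (WT) hosts and within the 24 tumors of Tgfb1 heterozygote (Het) hosts. The top 8 WT and top 6 Het tumors formed the Tgfb1-high group, the bottom 8 WT and bottom 6 Het tumors formed the Tgfb1-low group, and the other 28 tumors, called middle here, entered neither. The grouping is one of measured level and not a treatment, so every difference below describes transcripts that vary together with Tgfb1 between tumors.

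All tumors grew from non-irradiated p53null mammary fragments placed in the inguinal fat pads of female BALB/c hosts whose own mammary epithelium had been taken out at 3 weeks of age. Hosts were irradiated or sham-irradiated 3 days before transplantation, and their genotype was WT or Het. The Tgfb1-high group held 3 tumors of irradiated and 5 of sham-irradiated WT hosts, with 4 of irradiated and 2 of sham-irradiated Het hosts. The Tgfb1-low group held 7 tumors of irradiated and 1 of sham-irradiated WT hosts, with 4 of irradiated and 2 of sham-irradiated Het hosts. The heterozygous allele was a property of the host, and the RNA came from whole tumors, which mix the transplanted epithelium with host stroma, vessels and leukocytes. Each tumor was 1 array and the labels do not say which tumors shared a host, so the p-values measure the spread between tumors.

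Tgfb1 encodes TGF-beta 1, a cytokine that is secreted in a latent form, bound to its own propeptide and to latent TGF-beta binding proteins, and stored in the extracellular matrix. Integrins and proteases release it, it binds the receptors Tgfbr2 and Tgfbr1, and the receptors phosphorylate Smad2 and Smad3, which enter the nucleus with Smad4. In the mammary gland TGF-beta restrains epithelial growth, and in tumors it is known for matrix production, for epithelial-to-mesenchymal transition and for effects on vessels and leukocytes. Macrophages, platelets, endothelium, fibroblasts and epithelium can all make it.

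On the log2 scale, Tgfb1 ran from 9.00 through a median of 9.33 to 11.34 in the 8 Tgfb1-high tumors of WT hosts, against 7.86, 8.35 and 8.56 in the 8 Tgfb1-low tumors. In Het hosts it ran from 8.66 through 8.97 to 9.62 in the 6 Tgfb1-high tumors, against 6.24, 7.84 and 8.10 in the 6 Tgfb1-low tumors. The groups do not overlap because they were selected on this value, and the mean difference of 1.40 in Het hosts and 1.27 in WT hosts is therefore given with no test. The first tumors left out stood at 8.95 below the WT high group and at 8.60 above the WT low group, and at 8.52 and 8.11 in Het hosts, so the limits cut through a continuous spread and not through a gap. The tumors at the ends were WT_sham replicate 46, at 11.34, and Het_sham replicate 52, at 6.24. The second Tgfb1 probe set was dim, with group medians of 5.51 in the Tgfb1-high and 5.35 in the Tgfb1-low tumors of WT hosts and of 5.46 and 5.04 in Het hosts, where the median of all values was 5.83. Ranking the tumors on that probe set gave 0 called genes, so the results below rest on 1 probe set.

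**Figure D1:**
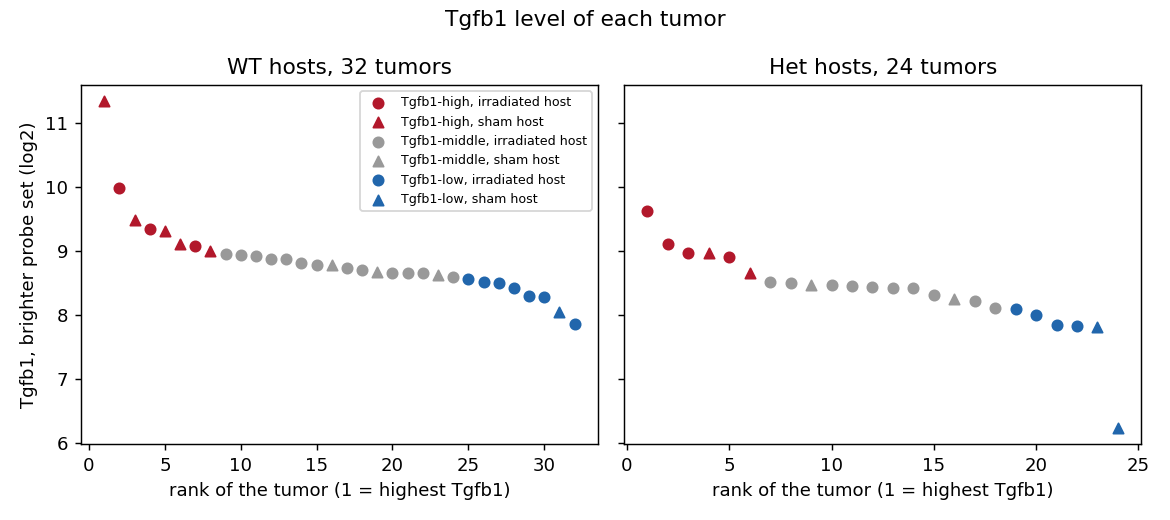
Tgfb1 level (log2, the brighter probe set) of each tumor against its rank, for 32 tumors of WT hosts and 24 of Het hosts; color marks the Tgfb1-high, middle and Tgfb1-low tumors, circles irradiated and triangles sham-irradiated hosts. The levels fall gradually across the ranks, apart from 1 sham tumor at 11.34 and 1 at 6.24.

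The tumors' irradiation and array controls were compared between the levels, and none of these differences passed its test. Irradiation was tested over both host genotypes together, and the controls within each, in groups of 8 or 6 tumors. Tests this small cannot show that the levels were alike, and the 18S mean was lower in Tgfb1-high tumors of both genotypes. Of the Tgfb1-high tumors, 7 of 14 came from sham-irradiated hosts, against 3 of 14 Tgfb1-low tumors (two-sided Fisher's exact test, p = 0.236). The imbalance lay in WT hosts, with 5 Tgfb1-high and 1 Tgfb1-low tumors of sham-irradiated hosts, while Het hosts had 2 at each level. The mean signal of the 18S ribosomal RNA control probe sets, an array control for RNA and labeling, was 12.13 ± 1.42 in Tgfb1-high and 13.02 ± 0.29 in Tgfb1-low tumors of WT hosts (SD, n = 8 each; exact two-sided permutation test, p = 0.112). In Het hosts it was 11.37 ± 0.89 in Tgfb1-high and 12.24 ± 0.70 in Tgfb1-low tumors (SD, n = 6 each; exact two-sided permutation test, p = 0.0866). It lay below 11 in 4 Tgfb1-high tumors, WT_irradiated replicate 57, WT_sham replicate 60, Het_irradiated replicate 4 and Het_sham replicate 19, and in 0 Tgfb1-low tumors. Among the middle tumors it also lay below 11 in WT_sham replicates 61, 64 and 65, WT_irradiated replicate 59 and Het_irradiated replicate 29. The 3' minus 5' signal difference of the Actb and Gapdh controls, which grows as RNA breaks down, had medians of 0.20 in Tgfb1-high and 0.19 in Tgfb1-low tumors of WT hosts, and of 0.39 in Tgfb1-high and 0.29 in Tgfb1-low tumors of Het hosts, with WT_irradiated replicate 57 apart at 0.91 (exact two-sided permutation tests, p = 0.192 in WT and 0.132 in Het hosts). One tumor stood apart in its endothelial transcripts: in WT_sham replicate 46 the mean of 16 endothelial genes was 11.42, against 6.65 to 8.51 in the other 31 tumors of WT hosts.

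As a check of the labeled tissue, Krt8 and Epcam, markers of mammary epithelium, had medians of 13.01 and 13.25 in Tgfb1-high and 13.22 and 13.34 in Tgfb1-low tumors, all high on this scale, but Epcam reached down to 8.70 in a Tgfb1-high tumor, against a lowest value of 12.74 in the Tgfb1-low tumors. The myoepithelial keratin Krt5 had medians of 6.34 in Tgfb1-high and 6.48 in Tgfb1-low tumors, with single tumors up to 13 and 10.97.

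Across 12507 genes other than Tgfb1, 872 were higher in Tgfb1-high tumors, 6.97% of those tested, and 370 were lower, 2.96%, at a Benjamini-Hochberg adjusted p under 0.05 (limma, host genotype as a block). The median log2 difference over all genes was -0.03. These counts changed with the tumors and covariates entered. Without the 4 Tgfb1-high tumors of low 18S signal, 23 genes were higher and 2 lower, Klf10 was the 1 member of any gene list described below that was still called, and with the 18S signal as a covariate 22 were higher and 3 lower. Among irradiated hosts alone, 7 Tgfb1-high against 11 Tgfb1-low tumors, 3 genes were higher and 0 lower. Without WT_sham replicate 46 and Het_sham replicate 52, 439 were higher and 136 lower. The part of RNA quality, of irradiation and of these tumors in the differences was not tested further, and counts of genes given below are those of all 28 tumors.

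The gene with the lowest p was Jam2, a junctional adhesion molecule of endothelium and other cells. Jam2 ran from 6.92 through a median of 8.24 to 9.60 in Tgfb1-high and from 5.6 through 6.54 to 7.11 in Tgfb1-low tumors of WT hosts, and from 7.03 through 8.18 to 8.93 in Tgfb1-high and from 5.35 through 6.00 to 6.22 in Tgfb1-low tumors of Het hosts. The 6 Het tumors of each level did not overlap, and only the lowest WT Tgfb1-high tumors reached into the Tgfb1-low range. The difference was 1.95 (SE 0.26, adjusted p = 0.000521). It was 1.85 without the 4 tumors of low 18S signal (adjusted p = 0.00357) and 1.95 among irradiated hosts (adjusted p = 0.0227), and it passed the threshold with any 1 tumor left out.

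Zfp703, a zinc finger protein that acts as a transcriptional repressor and is amplified in human luminal breast cancers, was higher by 1.03 (SE 0.15, adjusted p = 0.00129). It ran from 9.13 through 9.53 to 10.42 in Tgfb1-high and from 8.07 through 8.49 to 8.98 in Tgfb1-low tumors of WT hosts. In Het hosts it ran from 9.22 through 9.56 to 9.98 in Tgfb1-high and from 7.99 through 8.76 to 9.07 in Tgfb1-low tumors. Besides Tgfb1, Zfp703 and Klf10, described below, were the 2 genes whose Tgfb1-high tumors all lay above the Tgfb1-low tumors in both host genotypes. Over all genes, 6 lay fully above and 6 fully below in WT hosts, 79 fully above and 42 fully below in Het hosts.

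Nr2f1, an orphan nuclear receptor, was higher by 2.31 (SE 0.37, adjusted p = 0.00139). Its median was 8.99 in Tgfb1-high and 5.77 in Tgfb1-low tumors of WT hosts, and 8.05 in Tgfb1-high and 5.81 in Tgfb1-low tumors of Het hosts. In WT hosts 2 Tgfb1-high tumors stayed within the Tgfb1-low range, which ended at 6.59, while the other 6 lay above it. The remaining 9 of the 12 genes with the lowest p were higher by 0.99 to 1.76. They included receptors of myeloid cells, Adgre5 (1.08), Cd302 (1.12) and the complement receptor C5ar1 (1.39), and Nrp1 (1.35), a co-receptor for semaphorins and vascular endothelial growth factor. They also included 2 enzymes of sugar metabolism, Pygl (1.76), a glycogen phosphorylase, and H6pd (0.99), a hexose-6-phosphate dehydrogenase of the endoplasmic reticulum, with Ugcg (1.02), which makes glucosylceramide. Ccdc71l (1.03) and Zfp608 (1.46) complete the 12. All 12 kept an adjusted p under 0.05 without the 4 tumors of low 18S signal.

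**Figure D2:**
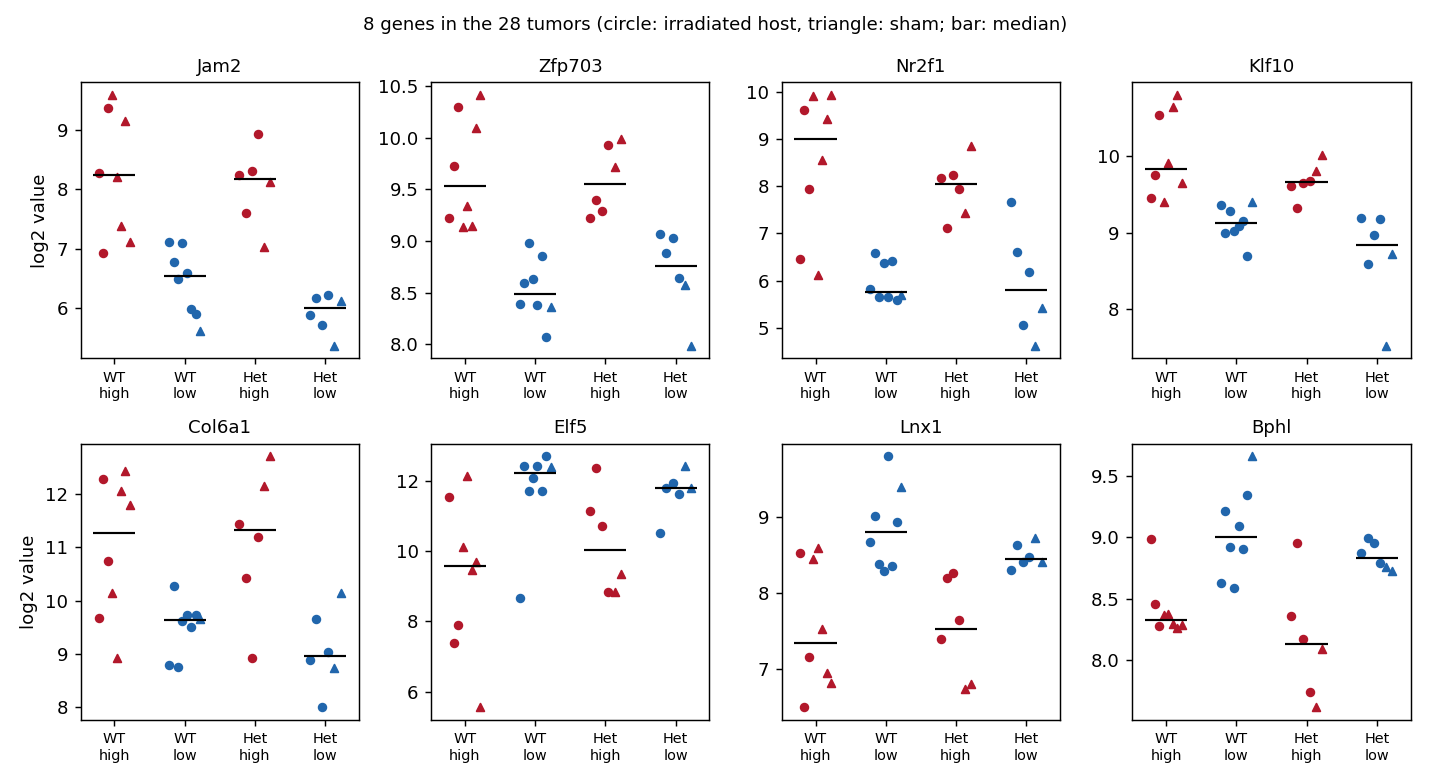
Log2 values of 8 genes in the 28 tumors, by host genotype and Tgfb1 level, with group medians as bars, circles for irradiated and triangles for sham-irradiated hosts. Zfp703 separates the levels in both host genotypes, the Klf10 levels touch in WT hosts, Nr2f1 has 2 WT Tgfb1-high tumors in the low range, and 1 WT Tgfb1-low tumor is low in Elf5.

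Of the lower genes the lowest p belonged to AW209491, for which no role is given here. It ran from 8.46 through 9.09 to 9.66 in Tgfb1-high and from 9.66 through 9.76 to 9.94 in Tgfb1-low tumors of WT hosts, and from 8.56 through 8.90 to 9.27 in Tgfb1-high and from 9.32 through 9.44 to 9.67 in Tgfb1-low tumors of Het hosts. The difference of -0.62 (SE 0.10, adjusted p = 0.00129) remained called without the tumors of low 18S signal, at -0.59 (adjusted p = 0.0277). The other 11 fell by 0.45 to 1.31. Several belong to mitochondria or metabolism: Uqcrfs1 (-0.56), the iron-sulfur subunit of respiratory complex III, Mrpl44 (-0.45), a mitochondrial ribosomal protein, Acot13 (-0.62), an acyl-CoA thioesterase, Bphl (-0.66), a serine hydrolase, and Mpst (-0.66), which transfers sulfur from mercaptopyruvate. Lnx1 (-1.15) is a ubiquitin ligase of the cell fate protein Numb, Bag2 (-0.69) a co-chaperone of Hsp70, Trub1 (-0.87) a pseudouridine synthase and Tarsl2 (-1.01) a threonyl-tRNA synthetase. Smim1 (-0.60), a small membrane protein, also stayed called without the tumors of low 18S signal, whereas Lnx1 did not, at -0.99 (adjusted p = 0.0683).

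The largest differences were wider in spread. Ereg, a ligand of the epidermal growth factor receptor, ran from 4.23 through 8.22 to 12.71 in Tgfb1-high and from 4.05 through 4.36 to 5.58 in Tgfb1-low tumors of WT hosts, and its median was 6.45 in Tgfb1-high and 3.97 in Tgfb1-low tumors of Het hosts. The difference was 2.88 (SE 0.76, adjusted p = 0.0197), and some Tgfb1-high tumors lay within the Tgfb1-low range. The matrix metalloproteinases Mmp10 (2.44) and Mmp9 (2.32), the neuropeptide neurotensin, Nts (2.32), and Brinp3 (2.40) also had Tgfb1-high tumors within the range of the Tgfb1-low tumors of WT hosts. On the lower side the membrane mucin Muc15 differed by -2.80 (SE 0.73, adjusted p = 0.0193), by -1.48 in Het and by -3.78 in WT hosts. Elf5, a transcription factor of luminal progenitors and milk-secreting cells, had medians of 9.59 in Tgfb1-high and 12.24 in Tgfb1-low tumors of WT hosts and of 10.02 in Tgfb1-high and 11.81 in Tgfb1-low tumors of Het hosts, a difference of -2.09 (SE 0.56, adjusted p = 0.0206). The tight-junction protein Marveld3 (-1.97), the peptide transporter Slc15a2 (-1.92), Slc44a3 (-1.91) and BC006965 (-1.95) complete this list. These 12 large differences, apart from Nr2f1, were no longer called without the tumors of low 18S signal.

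Among the other TGF-beta and activin ligands and receptors, 3 of 14 measured genes were higher and 0 lower, and the median difference was 0.33. Over all genes 6.97% were called higher and 2.96% lower, and these shares stand beside the counts of every list below. Inhba, the subunit of activin A, ran from 7.14 through 9.59 to 11.99 in Tgfb1-high and from 6.92 through 7.94 to 8.26 in Tgfb1-low tumors of WT hosts, with medians of 10.15 in Tgfb1-high and 8.19 in Tgfb1-low tumors of Het hosts. It differed by 1.56 (SE 0.42, adjusted p = 0.0206). Eng, endoglin, a co-receptor most abundant on endothelium, was higher by 0.93 (SE 0.22, adjusted p = 0.0122). Tgfbr1, the type I receptor, was higher by 0.42 (SE 0.13, adjusted p = 0.0366), with ranges that overlapped in both host genotypes, and kept its call in 17 of the 28 fits that left out 1 tumor. Without the tumors of low 18S signal 0 of the 14 were called and the median was 0.27. The type II receptor Tgfbr2 differed by 0.40 (adjusted p = 0.133), the co-receptor Tgfbr3 by 0.43 (adjusted p = 0.31), and the endothelial type I receptor Acvrl1 by 0.39 (adjusted p = 0.316). The sister ligands had differences of the other sign that did not pass the test: Tgfb2 had -0.73 (adjusted p = 0.116) and Tgfb3 -0.20 (adjusted p = 0.662).

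Of 23 measured genes that store or activate latent TGF-beta, 12 were higher and 0 lower, with a median difference of 0.76. Fibronectin, Fn1, which anchors the latent complex, ran from 11.88 through 13.31 to 14.09 in Tgfb1-high and from 10.92 through 11.79 to 13.35 in Tgfb1-low tumors of WT hosts, and from 12.87 through 13.58 to 14.08 in Tgfb1-high and from 10.78 through 11.85 to 13.59 in Tgfb1-low tumors of Het hosts. The groups overlapped in each genotype, and the difference was 1.37 (SE 0.28, adjusted p = 0.00692). Proteases that can release TGF-beta were higher: Mmp9, Mmp14 (1.29), Mmp2 (1.46) and urokinase, Plau (1.52), with its receptor Plaur (1.42). Nrros (1.0), which holds latent TGF-beta 1 on macrophages and microglia, and Emilin1 (1.58), which in mice limits the processing of the TGF-beta precursor, were higher too. Of the integrin chains, Itgb5 (0.67) and Itgb1 (0.49) were higher, while Itgav, Itgb3 and Itgb8, chains of the integrins best known for activation, had 0.38 (adjusted p = 0.0845), 0.61 (adjusted p = 0.211) and -0.41 (adjusted p = 0.413). The matrix proteoglycans Bgn (0.84) and Dcn (1.47) were called, but with 1 tumor left out Bgn kept its call in 15 and Dcn in 10 of 28 fits. None of the latent TGF-beta binding proteins was called: Ltbp1 had 0.92 (adjusted p = 0.101), Ltbp2 0.67, Ltbp4 0.37 and Ltbp3 -0.09, and the convertase Furin and the activator Thbs1 had 0.23 and 0.40. Without the tumors of low 18S signal 0 of the 23 were called and their median was 0.55.

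Signal transducers gave no call. Of 15 measured SMADs and SMAD regulators, 0 were called and the median was 0.04. Smad2 had 0.02, Smad3 0.33 and Smad4 -0.01, and the lowest adjusted p belonged to Smad1 (0.60, adjusted p = 0.0708), a SMAD of bone morphogenetic protein signaling. The inhibitory SMAD Smad7, itself a target of the pathway, had 0.45 (adjusted p = 0.0952), and the co-repressors Ski and Skil had 0.31 (adjusted p = 0.111) and 0.02.

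Of 25 measured genes known to respond to SMAD signaling, 8 were higher and 0 lower, with a median of 0.67. Klf10, a Krueppel-like factor first described as a TGF-beta-induced early gene, ran from 9.39 through 9.82 to 10.79 in Tgfb1-high and from 8.70 through 9.12 to 9.39 in Tgfb1-low tumors of WT hosts, and from 9.32 through 9.65 to 10 in Tgfb1-high and from 7.53 through 8.84 to 9.19 in Tgfb1-low tumors of Het hosts. The levels did not overlap in either host genotype, though in WT hosts the lowest Tgfb1-high tumor, at 9.392, and the highest Tgfb1-low tumor, at 9.391, had almost the same value. Its difference of 0.93 (SE 0.16, adjusted p = 0.00289) was the 1 call of this list that held without the tumors of low 18S signal, at 0.88 (adjusted p = 0.0414). Timp1, an inhibitor of metalloproteinases, was higher by 2.12 (SE 0.43, adjusted p = 0.00692), and Snai1, a repressor of epithelial genes, by 1.32 (adjusted p = 0.00761). Fn1, which is on this list also, is given above. Of bone morphogenetic protein ligands, receptors and antagonists, 3 of 12 were higher and 0 lower, where 6.97% of all genes were called higher. They were the ligand Bmp2 (2.10), the secreted antagonist Nbl1 (1.22) and the follistatin-like protein Fstl1 (1.38). The count was 5 without Het_irradiated replicate 26.

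All 13 measured regulators and markers of the mesenchymal state had positive differences, 6 were called, and the median was 1.19. Vimentin, Vim, an intermediate filament of mesenchymal cells, ran from 12.13 through 13.19 to 14.30 in Tgfb1-high and from 11.22 through 11.99 to 12.88 in Tgfb1-low tumors of WT hosts, and was higher by 1.15 overall (SE 0.23, adjusted p = 0.00692). The repressors Zeb1 (1.85), Zeb2 (1.24) and Snai1 were called. Without the tumors of low 18S signal 0 of the 13 were called and the median was 1.02, and among irradiated hosts 0 were called and the median was 1.04. The number called was 10 when WT_sham replicate 3, WT_sham replicate 17 or Het_irradiated replicate 35 was left out, all of them Tgfb1-high tumors.

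All 27 genes of epithelial junctions and epithelial identity had negative differences, with a median of -1.05, and 6 were called lower. Rab25, a small GTPase of polarized epithelium, ran from 6.13 through 8.45 to 10.42 in Tgfb1-high and from 8.56 through 10.25 to 10.64 in Tgfb1-low tumors of WT hosts, and differed by -1.68 (SE 0.41, adjusted p = 0.0136). The others named by the rule were the junction protein Cgn (-1.32), the sorting adaptor Ap1m2 (-1.44) and the polarity protein Crb3 (-0.93). The mean of the 27 genes was below 9 in 4 of 8 Tgfb1-high and 1 of 8 Tgfb1-low tumors of WT hosts and in 2 of 6 Tgfb1-high and 0 of 6 Tgfb1-low tumors of Het hosts, a limit chosen after the values were seen. That mean ran from 6.15 to 10.17 over the Tgfb1-high tumors, against 8.53 to 10.21 over the Tgfb1-low tumors. Without the tumors of low 18S signal 0 of the 27 were called (median -0.82), among irradiated hosts 0 (median -0.87), and without WT_sham replicate 46 and Het_sham replicate 52 the number was 3. It was 12 to 15 without WT_sham replicate 3, WT_sham replicate 17, WT_irradiated replicate 10 or Het_irradiated replicate 35, all Tgfb1-high, and 16 without the Tgfb1-low WT_irradiated replicate 16, whose mean of 8.53 stood below the other Tgfb1-low tumors. The simple epithelial keratins did not pass the test: 0 of 4 were called, with a median of -0.61, and Krt18 had -0.64 (adjusted p = 0.293).

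**Figure D3:**
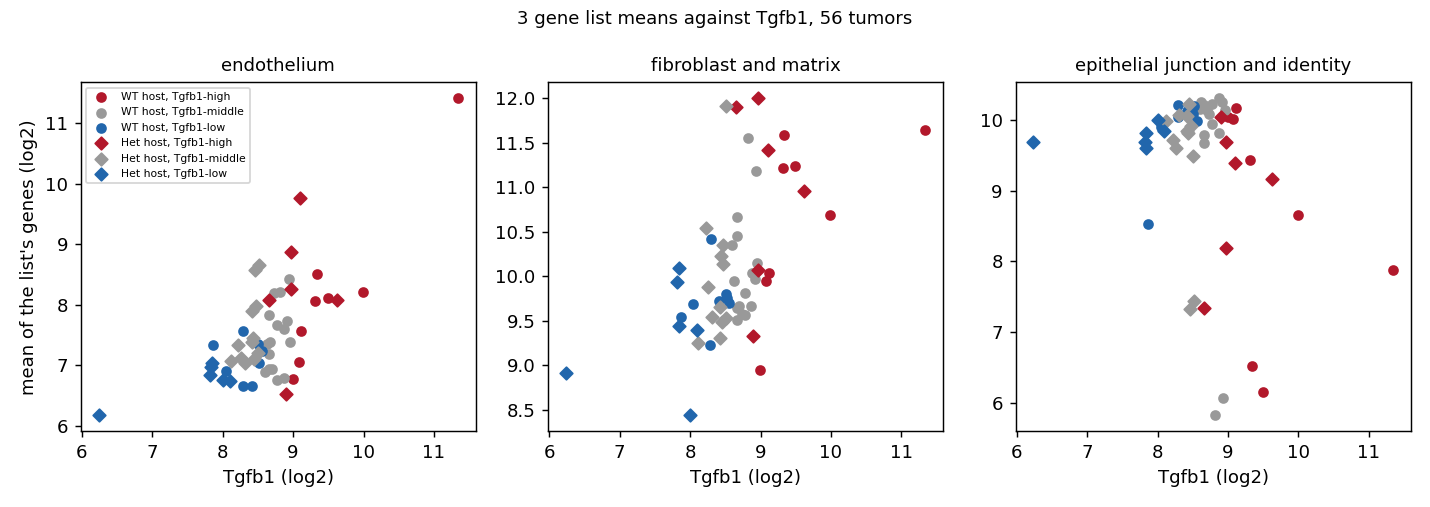
Mean log2 level of 16 endothelial genes, of 23 fibroblast and matrix genes and of 27 epithelial junction and identity genes against Tgfb1 (log2) in all 56 tumors, circles for WT and diamonds for Het hosts, red for Tgfb1-high, gray for middle and blue for Tgfb1-low tumors. The endothelial mean climbs with Tgfb1 up to the 1 tumor at 11.42, and the epithelial mean is low in part of the Tgfb1-high tumors and in 4 middle tumors.

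Genes of the vessel wall had the highest median of any list of 5 or more measured genes, 1.30, and 14 of 16 endothelial genes were higher and 0 lower. Tie1, an endothelial receptor kinase, ran from 5.74 through 7.33 to 11.88 in Tgfb1-high and from 5.64 through 6.04 to 6.46 in Tgfb1-low tumors of WT hosts, and from 5.52 through 7.48 to 9.64 in Tgfb1-high and from 4.85 through 5.58 to 5.85 in Tgfb1-low tumors of Het hosts. Its highest value was that of WT_sham replicate 46, and the difference was 1.82 (SE 0.44, adjusted p = 0.0127). The angiopoietin receptor Tek (1.96), the cell adhesion molecule Esam (1.30) and the secreted Egfl7 (1.22) were higher as well. Without WT_sham replicate 46, 12 of the 16 were called and the median was 1.04; without the tumors of low 18S signal 0 were called and the median was 1.23. Of 7 pericyte genes 3 were higher, among them the receptor Pdgfrb (1.47) and Rgs5 (0.98), a regulator of G protein signaling, and the median was 0.87. Without WT_sham replicate 46 and Het_sham replicate 52, 1 of the 7 was called and the median was 0.62. In whole-tumor RNA, more cells of a type and more RNA per cell cannot be told apart.

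Of 23 measured fibroblast and matrix genes, all had positive differences, 18 were called higher, and the median was 1.25. Col6a1, a chain of collagen VI, ran from 8.92 through 11.28 to 12.44 in Tgfb1-high and from 8.76 through 9.64 to 10.28 in Tgfb1-low tumors of WT hosts, and from 8.93 through 11.32 to 12.71 in Tgfb1-high and from 8.0 through 8.96 to 10.15 in Tgfb1-low tumors of Het hosts. It was higher by 1.74 (SE 0.37, adjusted p = 0.00761). Col6a2 (1.57), Col6a3 (1.38) and the stromal surface protein Thy1 (1.56) followed. Of 19 matrix proteases and their inhibitors, 12 were higher, among them Mmp19 (1.70), and the median was 1.14. Without the tumors of low 18S signal 0 genes of either list were called, and the medians were 0.94 and 1.06. Without WT_sham replicate 46 and Het_sham replicate 52, 6 of the 23 and 7 of the 19 were called, with medians of 1.15 and 1.04. Leaving out WT_sham replicate 31 alone gave 13 called of the 23. Of 14 genes of actin and focal adhesion 5 were higher, including the fibronectin receptor chain Itga5 (1.58) and Zyx (0.61), a protein of focal adhesions. That count was 2 without WT_sham replicate 46. Tln1, called at 0.42 but in only 8 of the 28 fits that left out 1 tumor, had a second probe set that differed by -0.03.

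**Figure D4:**
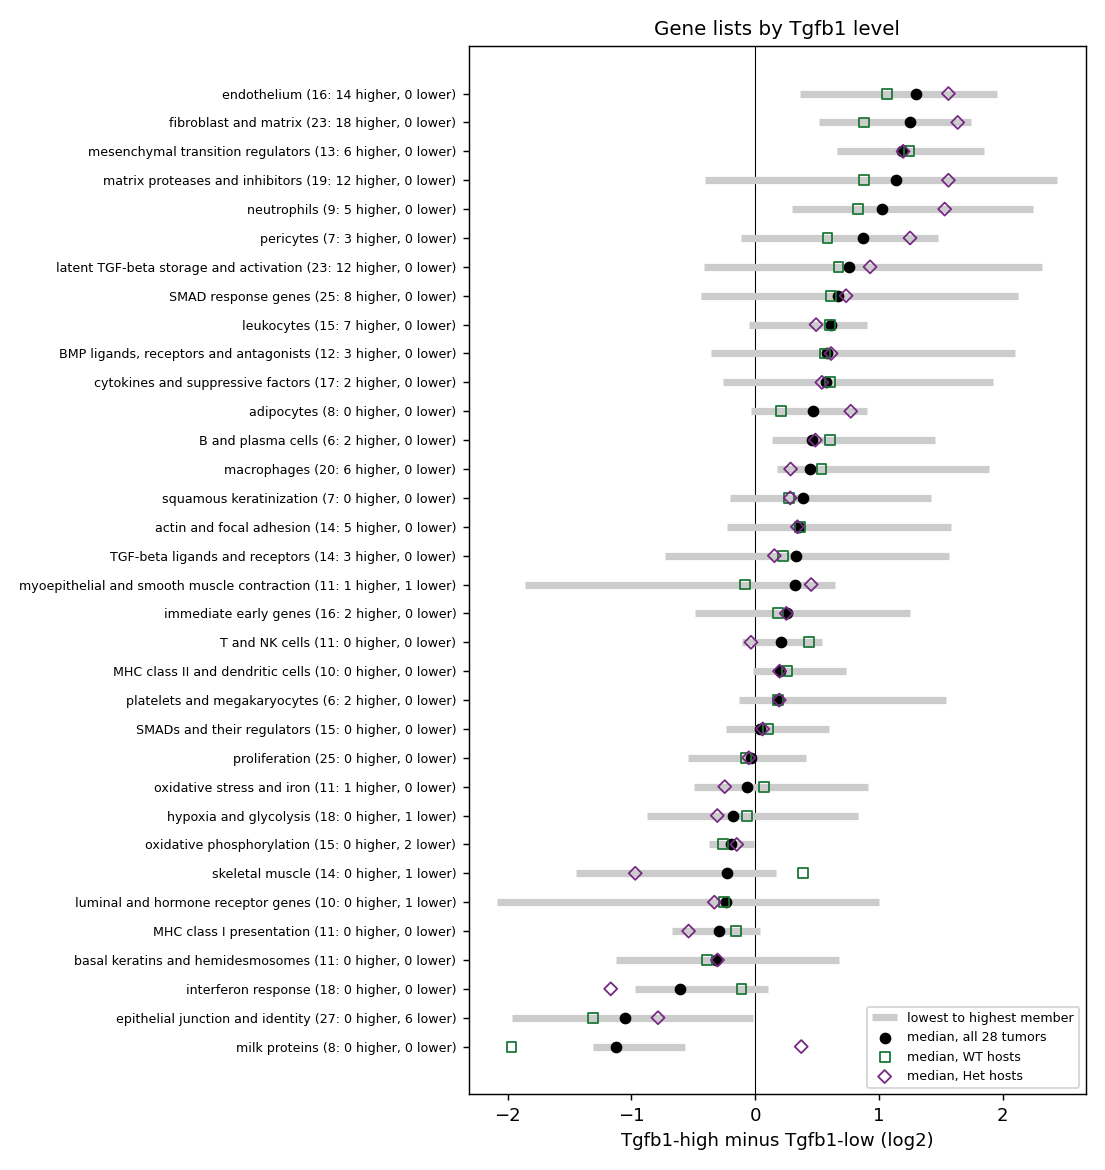
Median log2 difference of each gene list with 5 or more measured genes, Tgfb1-high minus Tgfb1-low, for all 28 tumors, for WT and for Het hosts, with the range of the members' differences in all 28 tumors as a gray bar; labels give the genes measured and called. The endothelial and the fibroblast and matrix lists lead at 1.30 and 1.25, and the epithelial and milk lists stand lowest at -1.05 and -1.13.

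Leukocyte lists had positive medians. Of 15 general leukocyte genes 7 were higher, with a median of 0.62, for example Cd53 (0.89) and the integrin chain Itgb2 (0.61), but 2 to 4 were called when any 1 of 11 tumors was left out, with 2 left without WT_sham replicate 60. A second probe set of Laptm5, called at 0.83, differed by -0.13. Of 20 macrophage genes 6 were higher and the median was 0.45. Mrc1, the mannose receptor of tissue macrophages, had the largest of these differences: it ran from 8.0 through 10.14 to 11.88 in Tgfb1-high and from 7.10 through 7.92 to 8.76 in Tgfb1-low tumors of WT hosts and differed by 1.89 (SE 0.35, adjusted p = 0.00405). Lyz2 (0.79), Msr1 (1.03) and Fcgr3 (0.83) were higher too. Of 9 neutrophil genes 5 were higher and the median was 1.02, with S100a9 (2.25), the chemokine Cxcl2 (1.47), Il1b (1.02) and the receptor Csf3r (0.92). Of 17 cytokines and suppressive factors 2 were higher and the median was 0.57, including Il6 (1.92, SE 0.48, adjusted p = 0.015). Of 6 platelet and megakaryocyte genes 2 were higher, the chemokines Pf4 (1.54) and Ppbp (1.39), and the median was 0.19. Ppbp kept its call in 21 of the 28 fits that left out 1 tumor. The mean of the platelet list was 8.21 in WT_sham replicate 46, against a highest value of 7.19 in the other 31 tumors of WT hosts.

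Among the lymphoid and antigen presentation lists, none of 11 T and NK cell genes (median 0.21), 3 regulatory T cell genes, 10 MHC class II and dendritic cell genes (median 0.20) or 11 MHC class I genes (median -0.30) was called. Cd22 (0.71) and Igha (1.45) were higher among 6 B and plasma cell genes, where 6.97% of all genes were called higher. Igha was called in only 8 of the 28 fits that left out 1 tumor, and 0 of the 6 were called without Het_sham replicate 19. Of 18 interferon response genes, 17 had negative differences but 0 were called: the median was -0.61, with -1.17 in Het and -0.11 in WT hosts. Ifit2 had -0.97 (adjusted p = 0.121).

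Calls in lists of growth, metabolism and other programs stand beside the shares over all genes, 6.97% called higher and 2.96% lower. Of 25 proliferation genes 0 were called and the median was -0.03. All 15 oxidative phosphorylation genes had negative differences, with a median of -0.20, and 2 were called lower, Ndufa9 (-0.37) and Ndufb8 (-0.28), both subunits of respiratory complex I. Car9, a carbonic anhydrase induced by hypoxia, was lower by 0.87 on the log2 scale (adjusted p = 0.04), 1 of 18 hypoxia and glycolysis genes, and was not called in 10 of the 28 fits that left out 1 tumor. Mb, myoglobin, was lower, at -1.45 (SE 0.31, adjusted p = 0.00761), while the other 13 skeletal muscle genes were not called. Of 16 immediate early genes, Klf4 (1.25) and the phosphatase Dusp1 (1.10) were higher. The antioxidant enzyme Srxn1 was called at 0.84, though a second probe set differed by -0.05. Milk protein genes were not called (0 of 8): their median was 0.37 in Het and -1.97 in WT hosts, with a difference between genotypes that did not pass the test for any of them.

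Means of gene lists were also entered as covariates. With the endothelial mean 0 of all 12507 genes were called in either direction, and with the fibroblast and matrix mean 2 were higher and 0 lower. The epithelial mean gave 4 and 0, the macrophage mean 5 and 3, and the leukocyte mean 15 and 3. The endothelial and leukocyte means were chosen after the data were seen. The means entered are made of genes that themselves varied with the Tgfb1 level, so they take up part of the difference. Counts fell with each of them, and the cause of the fall was not tested. With the endothelial mean the median difference was 0.53 for the fibroblast and matrix list and -0.52 for the epithelial list. It was 1.10 for neutrophil and 0.43 for macrophage genes.

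The tumors of WT and Het hosts are separate tumors, so each contrast repeats the other. In WT hosts 10 genes were higher (0.08% of those tested) and 4 lower (0.032%). In Het hosts 0% were called in either direction, with 1496 genes at an unadjusted p under 0.05. All 10 genes higher in WT hosts had positive differences in Het hosts and all 4 lower genes had negative ones. Over the 12507 genes, which are not independent, the Het and WT differences correlated with Pearson's r of 0.728 and Spearman's rho of 0.674. No gene's difference between the host genotypes was called (limma, interaction), with 152 at an unadjusted p under 0.05. The count in WT hosts hung on single tumors: it was 0 without WT_sham replicate 46 and 372 without WT_sham replicate 3, the Tgfb1-high WT tumor with the lowest Tgfb1.

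**Figure D5:**
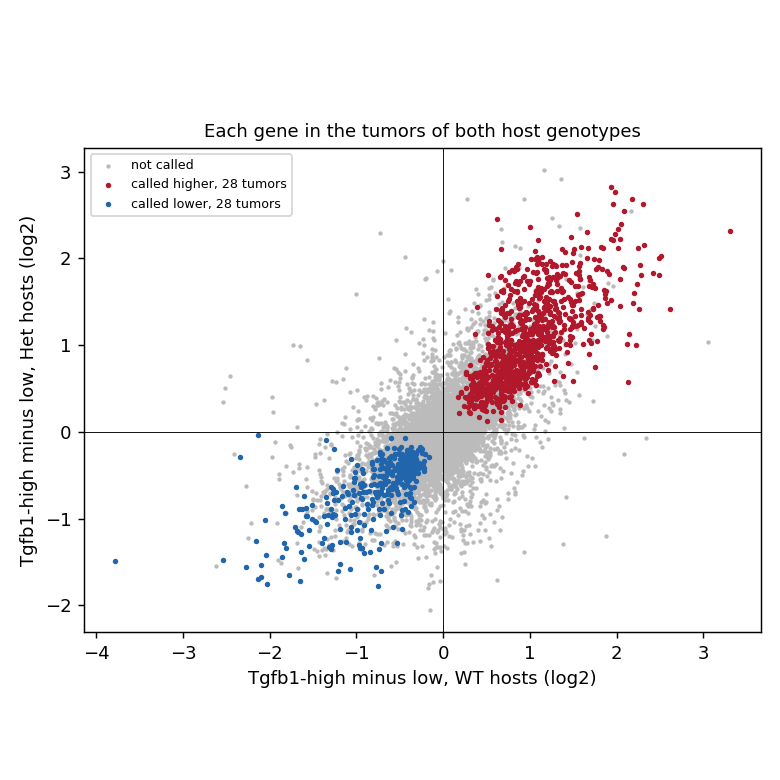
Log2 difference between Tgfb1-high and Tgfb1-low tumors of each gene in WT hosts (x axis) and in Het hosts (y axis), with genes called over all 28 tumors in red (higher) and blue (lower). The called genes were chosen on the 2 genotypes together, which largely fixes their equal signs; r over all genes is 0.728.

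The 28 middle tumors took no part in the ranking's ends, and the slope of each gene on Tgfb1 was measured in them. No gene was called (limma, host genotype as a block), with 946 at an unadjusted p under 0.05. Tgfb1 itself spanned little in them, from 8.60 to 8.95 in WT and from 8.11 to 8.52 in Het hosts. Some middle tumors had an 18S signal below 11, and the slopes were not refitted without those tumors. Of the 872 genes higher in Tgfb1-high tumors, 83% had positive slopes, and of the 370 lower genes 80% had negative slopes, where 48.7% of all genes had positive ones. Genes vary together between tumors, so these shares do not count independent observations. By list the slopes did not all run with the main comparison. All 16 endothelial genes and all 13 mesenchymal regulators had positive slopes, and all 27 epithelial genes negative ones, whereas 2 of 15 leukocyte genes and 3 of 9 neutrophil genes had positive slopes. The middle tumors with an epithelial mean below 9 were WT_irradiated replicates 11 and 59 and Het_irradiated replicates 7 and 29. Each had Tgfb1 above the median of the middle tumors of its host genotype, 8.75 in WT and 8.43 in Het hosts. The slopes were not measured without these tumors. Nrp1 had a slope of 2.19 per log2 unit of Tgfb1 (unadjusted p = 0.032), and Snai1 of 2.96 (unadjusted p = 0.01). Zfp703 and Klf10 had 0.31 and 0.21, at unadjusted p of 0.58 and 0.73.

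Over all 56 tumors, centered within host genotype, the 5 genes most like Tgfb1 were Pde8a, a cyclic AMP phosphodiesterase (Pearson's r 0.785, Spearman's rho 0.719), Esam (0.760 and 0.611), the adhesion receptor Adgrf5 (0.757 and 0.646), Mmrn2, a matrix protein of vessels (0.753 and 0.584), and the protein kinase Pkn3 (0.752 and 0.691). These genes were picked for that value, so it carries no test. Without WT_sham replicate 46 and Het_sham replicate 52, r was 0.669 for Pde8a, 0.612 for Esam, 0.611 for Adgrf5, 0.574 for Mmrn2 and 0.658 for Pkn3. Pde8a ran from 7.02 through 8.38 to 10.94 in Tgfb1-high and from 6.52 through 6.90 to 7.46 in Tgfb1-low tumors of WT hosts.

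Tgfb1 lies on mouse chromosome 7. The sequences around the transcription starts of Tgfb1, of Pde8a as the gene most like it, and of Nrp1 as a leading gene with a positive slope in the middle tumors are shown because the 3 transcripts varied together. They are the RefSeq promoters of GRCm38.p6, windows of 300 bases at chr7:25686752-25687051, chr7:81213015-81213314 and chr8:128358823-128359122, each on the plus strand and read 5' to 3'. The Nrp1 window lies downstream of that gene's outermost annotated start. Capitals mark matches, on either strand, to the GC box GGGCGG, the AP-1 site TGANTCA, and the SMAD motifs CAGACA and GTCTAGAC.
Tgfb1: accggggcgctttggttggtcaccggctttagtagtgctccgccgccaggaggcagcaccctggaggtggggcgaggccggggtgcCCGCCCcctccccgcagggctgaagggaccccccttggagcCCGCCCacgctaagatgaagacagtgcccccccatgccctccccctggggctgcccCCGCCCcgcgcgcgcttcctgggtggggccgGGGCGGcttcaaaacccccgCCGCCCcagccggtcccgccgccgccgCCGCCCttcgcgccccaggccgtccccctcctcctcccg
Pde8a: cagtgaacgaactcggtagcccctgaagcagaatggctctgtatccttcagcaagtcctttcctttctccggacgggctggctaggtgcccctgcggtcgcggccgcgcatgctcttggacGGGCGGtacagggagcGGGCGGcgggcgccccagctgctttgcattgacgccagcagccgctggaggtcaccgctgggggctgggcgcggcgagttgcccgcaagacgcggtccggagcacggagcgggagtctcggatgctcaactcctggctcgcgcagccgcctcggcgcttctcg
Nrp1: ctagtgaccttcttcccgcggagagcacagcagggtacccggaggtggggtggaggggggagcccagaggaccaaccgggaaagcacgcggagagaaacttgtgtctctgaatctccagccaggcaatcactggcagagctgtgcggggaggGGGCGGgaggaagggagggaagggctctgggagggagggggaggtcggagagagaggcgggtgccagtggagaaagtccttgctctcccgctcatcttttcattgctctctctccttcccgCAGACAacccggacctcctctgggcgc
The Tgfb1 window held 6 GC boxes, that of Pde8a 2 and that of Nrp1 1, and the Nrp1 window held 1 CAGACA. A GC box stood in 35.7% of the 32851 promoters of this set, CAGACA in 21%, TGANTCA in 7.81% and GTCTAGAC in 0.213%. A match of letters describes the window and is not a measured site.

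Of the genes within 1 Mb of Tgfb1, 23 were tested: Axl, a receptor kinase, was higher by 1.04 (adjusted p = 0.0169), 0 were lower, 11 had positive differences and the median was -0.02. Over all genes 6.97% were called higher and 2.96% lower, so 1 call among 23 is not a mark of this region.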

How the data were processed

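Affymetrix mouse arrays were hybridized with RNA labeled from 100 ng of total RNA per tumor, per the labels' protocols. The authors deposited log2 expression values made with RMA, per the submitters' processing notes, with no version. RMA normalizes the arrays of a run together and sums up the probes of a probe set. Whether the arrays of WT and Het hosts shared a run was not tested. The array medians of 5.92 to 6.00 in WT and 5.57 to 5.71 in Het hosts put the 2 sets on different levels, so tumors were ranked and compared within host genotype. The number of arrays limits the precision.

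Of 45101 probe sets, 34958 carry 1 gene symbol in the platform annotation, 932 several and 9211 none. A probe set was kept where 6 or more arrays exceeded 5.83, the middle of all values, and each gene was represented by its probe set of highest mean over the 56 arrays, which left 12508 genes. Differences, Tgfb1-high minus Tgfb1-low, were fitted with limma 3.58.1 in R 4.3.3 (lmFit and eBayes, genotype as a fixed block) and called at a Benjamini-Hochberg adjusted p under 0.05. The adjustment ran over all 12508 genes, so the p-value of Tgfb1 entered it. Tgfb1 was left out only when calls were counted. Effects within each genotype and their interaction came from 1 fit of 4 group means, and slopes from the 28 middle tumors. Controls were compared by exact permutation within genotype.

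The tumors, gene lists and tests were chosen with earlier results of these data known. Of 566 list genes 481 were measured. Genes named are Tgfb1, the 12 of lowest p and the 6 of largest difference in each direction, up to 4 called members of a list (or 2 of lowest p where none was called), all members of the 3 TGF-beta lists, the leading genes of the interaction and of the middle slope, neighbors within 1 Mb and the 5 genes most like Tgfb1. Epithelial and keratin markers shown as a tissue check stand outside it. Alternatives changed the filter, normalization, variance model, group sizes, covariates, the Tgfb1 probe set and the tumors entered. Promoters were matched by symbol, and 138 of 187 named genes had one.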

Additional observations from a re-analysis of the deposited data

Results flagged for a closer look

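Within the 4 groups of 8 or 6 tumors, 184 sets of values (a gene, a control or a list mean in 1 group) were examined for 1 tumor far from the rest by Dixon's test, and 12 were marked; chance marks about 1 in 20. Both counts include Tgfb1, but the groups were cut from the ends of its own values, so that rate does not hold for it. Its marks are given as a description with no test. They were at 11.34 in WT_sham replicate 46 (group median 9.33) and at 6.24 in Het_sham replicate 52 (group median 7.84). In the same 2 tumors the endothelial mean was marked, at 11.42 in the first (group median 8.09) and at 6.18 in the second (group median 6.80), so both ends of the Tgfb1 scale are ends of the endothelial list too. In WT_sham replicate 46 the erythroid gene Alas2 stood at 12.68, against a highest value of 8.47 in the other 31 tumors of WT hosts, and the pericyte mean at 11.40, against a highest value of 9.95. Whether this tumor differs in cell makeup was not tested.

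The Tgfb1-low tumor WT_irradiated replicate 16 was lowest in Elf5 at 8.66 (group median 12.24), in Marveld3 at 7.76 (group median 10.32) and in the epithelial mean at 8.53 (group median 10.06). The Tgfb1-low tumor WT_irradiated replicate 53 was lowest in Cd302 at 7.45 (group median 8.44) and in the 18S control at 12.36 (group median 13.09). Brinp3 stood at 4.65 in WT_irradiated replicate 2 (group median 3.39). Among Tgfb1-high tumors of WT hosts, Bphl stood at 8.99 in WT_irradiated replicate 10 (group median 8.33), and the 3' minus 5' difference at 0.91 in WT_irradiated replicate 57 (group median 0.20).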

How the results depend on the processing

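The counts of 872 higher and 370 lower genes stayed within 1.5 times with no filter or a stricter one, with quantile normalization, array weights, trended robust eBayes or all probe sets, and with larger groups of 10 WT and 8 Het tumors a level. A block for host group gave 235 lower; adding the middle tumors as a level gave 598 lower, smaller groups of 5 WT and 4 Het tumors a level 566, a division at the median 560, and the slope over 56 arrays 1792 higher and 1532 lower. With the 3' minus 5' difference as a covariate 274 were higher and 87 lower, and with 18S 22 and 3. Irradiated hosts alone gave 3 and 0, and the other Tgfb1 probe set 0 and 0. With a list mean as a covariate, the epithelial mean gave 4 and 0, the macrophage mean 5 and 3, and the matrix mean 2 and 0. Alternatives chosen after seeing the data gave 23 and 2 without arrays of low 18S, 439 and 136 without the 2 extreme arrays, 0 and 0 with the endothelial and 15 and 3 with the leukocyte mean. The cause of these changes was not tested. Leaving out 1 tumor gave 600 to 1175 higher and 203 to 630 lower genes: the lower count moved by over 1.5 times without WT_sham replicate 3 (630), WT_sham replicate 46 (244), WT_irradiated replicate 25 (240), Het_sham replicate 19 (203), Het_sham replicate 15 (212) and Het_irradiated replicate 26 (572). In WT hosts the 14 calls became 4 with no filter, 7 with quantile normalization, 0 in a fit of WT arrays only, and 0 to 372 with 1 tumor left out; in Het hosts 0 to 34 were called, 34 without Het_irradiated replicate 35. Of the 112 named called genes, 15 stayed called without arrays of low 18S and 2 in irradiated hosts. Signs turned for Tgfbr1 (-0.05, other Tgfb1 probe set), Bgn and Dcn (-0.15 and -0.25, matrix mean) and Ppbp and Mmrn2 (-0.042 and -0.11, endothelial mean). Ranking on 1 probe set, 14 tumors a level, uneven irradiation and 18S signal, and whole-tumor RNA limit these results.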

Other observations

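Calls by chromosome were looked at after the values were seen and are described with no test. Of the 448 genes tested on chromosome 13, 35 were lower in Tgfb1-high tumors (7.81%), against 2.96% of all genes. There 28 were higher (6.25%), against 6.97% of all genes. Of the 12 lower genes of lowest p, 4 lie on it, AW209491, Bphl, Acot13 and Uqcrfs1. On chromosome 19, 27 of 446 genes were lower (6.05%) and 18 higher (4.04%). On chromosome 12, 63 of 442 genes were higher (14.3%) and 4 lower (0.905%), with a median difference of 0.14. The median of chromosome 13 genes, relative to that of all genes of the same array, ran from -0.33 to 0.34 in Tgfb1-high and from -0.03 to 0.30 in Tgfb1-low tumors of WT hosts. In Het hosts it ran from -0.04 to 0.32 in Tgfb1-high and from -0.12 to 0.26 in Tgfb1-low tumors, so the groups overlapped in both genotypes. Gene dosage was not measured in these data.

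The 3 genes with the lowest p for a difference between host genotypes in each direction were not called. Lrrc75b differed by -0.04 in Het and -2.13 in WT hosts, Nat8 by -0.09 in Het and -1.35 in WT hosts, and A630023A22Rik by 0.42 in Het and -0.88 in WT hosts. Ifi27l2b had -0.41 in Het and 0.16 in WT hosts, Ogg1 -0.33 in Het and 0.11 in WT hosts, and Cux2 -0.25 in Het and 0.14 in WT hosts. In the middle tumors the lowest p belonged to Rpgr (slope -2.17), Dlg5 (-1.78) and Arrdc4 (-4.08) on the negative side and to Adamtsl3 (5.85), Syne1 (3.67) and Fyn (2.78) on the positive side, none of them called.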
